A study of Mus musculus with 12 samples.

Results

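The genes described here encode the 3 families of scaffold proteins that lie in layers beneath the membrane of excitatory synapses: Dlg1, Dlg2, Dlg3 and Dlg4, Shank1, Shank2 and Shank3, and Homer1, Homer2 and Homer3. They were chosen by gene symbol, 10 of the 23183 symbols in the deposited tables, and the rule uses the symbol alone. All 10 were found in all 12 libraries, and all 10 passed the filter of a mean of at least 1 FPKM (fragments mapped to a gene, per kilobase of its transcript and scaled to the library's total) in every comparison. The study sequenced total RNA of hippocampus and prefrontal cortex in a model of lasting radiation injury of the gut, in which the abdomen of male C57BL/6 mice received 13 Gy of X-rays and control mice were left without irradiation. There were 3 irradiated and 3 control mice, with 1 library from each region of each mouse, so that the 4 groups of 3 libraries were irradiated hippocampus, control hippocampus, irradiated prefrontal cortex and control prefrontal cortex. The brain was collected in the chronic phase after irradiation. Neither the age of the mice nor the number of days after irradiation is given in the labels. The model exposes the abdomen, not the head. In bulk tissue, fewer cells of a type and less RNA per cell cannot be told apart.

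The postsynaptic density is built in tiers. Dlg proteins, also called membrane-associated guanylate kinases, sit nearest the membrane, where their PDZ domains bind the tails of NMDA receptor subunits, of the auxiliary subunits of AMPA receptors and of adhesion proteins. Linker proteins of the DLGAP family join them to the Shank proteins, large scaffolds deeper in the spine, and Shank proteins bind Homer proteins, which in turn hold group I metabotropic glutamate receptors and the inositol trisphosphate receptor of the calcium store. Long Homer proteins form tetramers through a coiled coil. The short Homer1a, made from the same gene by neuronal activity, lacks the coiled coil and loosens these links. The values here are per gene and do not separate Homer1a from the long Homer1 transcripts.

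The promoters of the Homer genes are shown because these genes differed between the regions in opposite directions. Each window runs from 250 bases before to 50 bases after a RefSeq transcription start on GRCm38.p6, 5′ to 3′ on the gene's strand, and the window farthest upstream is given where a gene had several. Capitals mark GC boxes (GGGCGG or its reverse complement CCGCCC, the core of Sp-family binding sites) in Homer3 and Homer2, and half-sites of the cyclic AMP response element (TGACG or its reverse complement CGTCA) in Homer1. The half-site was added to the search after the Homer1 window had been read. The windows lie at chr8:70282749-70283048 on the plus strand (Homer3), chr7:81706876-81707175 on the minus strand (Homer2) and chr13:93303507-93303806 on the plus strand (Homer1).
Homer3: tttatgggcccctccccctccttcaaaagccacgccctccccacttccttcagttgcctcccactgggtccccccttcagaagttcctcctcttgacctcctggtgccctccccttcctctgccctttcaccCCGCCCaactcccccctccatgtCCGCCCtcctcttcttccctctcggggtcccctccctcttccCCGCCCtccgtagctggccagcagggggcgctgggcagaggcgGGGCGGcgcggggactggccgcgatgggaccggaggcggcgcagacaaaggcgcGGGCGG
Homer2: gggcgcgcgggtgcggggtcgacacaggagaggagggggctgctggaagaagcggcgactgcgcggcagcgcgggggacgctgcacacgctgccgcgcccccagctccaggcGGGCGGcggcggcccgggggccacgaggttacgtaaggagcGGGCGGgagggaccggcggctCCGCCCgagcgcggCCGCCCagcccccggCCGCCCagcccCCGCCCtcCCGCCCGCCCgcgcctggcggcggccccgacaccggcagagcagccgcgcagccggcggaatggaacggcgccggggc
Homer1: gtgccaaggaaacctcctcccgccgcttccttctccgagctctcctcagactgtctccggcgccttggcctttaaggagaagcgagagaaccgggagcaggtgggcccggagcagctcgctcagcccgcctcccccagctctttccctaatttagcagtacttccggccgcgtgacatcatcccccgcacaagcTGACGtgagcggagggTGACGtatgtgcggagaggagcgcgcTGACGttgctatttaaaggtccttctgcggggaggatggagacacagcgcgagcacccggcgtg
Homer3 held 5 GC boxes and Homer2 held 8, of which 1 pair overlapped, while this Homer1 window held none. GC boxes were found in 35.6% of the 32817 RefSeq windows searched, on both strands. The Homer1 window held 3 response element half-sites and the Homer3 and Homer2 windows held none, against 20.8% of all windows with at least 1. None of the 3 windows held the full cyclic AMP response element (TGACGTCA, in 1.79% of all windows), the E-box CACGTG (7.15%), the palindromic NRF1 site (0.966%) or TATAAA (13.6%). These matches describe letters only. Windows were found for 8 of the 10 genes, 18 in all. Among those not shown, the Shank3 window held 4 GC boxes, and a Dlg1 and a Dlg4 window held 2 each. The other Homer2 window held none. Dlg1 was lower in hippocampus, and Shank3 and Dlg4 did not pass the test between the regions. G and C made up 82.3% of the shown Homer2 window, 69.7% of the Homer3 window and 63% of the shown Homer1 window.

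Within the Dlg family, Dlg4, which encodes PSD-95, was the most abundant gene in both regions. Over the 6 libraries of each region its lowest, median and highest levels were 213, 238 and 262 FPKM in hippocampus, against 230.2, 237 and 283 FPKM in prefrontal cortex, so the regions overlapped. Dlg2, which encodes PSD-93, came next, with a hippocampal median of 63.9 FPKM and a prefrontal median of 74.9 FPKM. Dlg3, which encodes SAP102, had medians of 47.1 and 45.1 FPKM in the same order. Dlg4 ranked 265th of all genes in hippocampus and 257th in prefrontal cortex. In both regions its range lay wholly above that of Dlg2, and that of Dlg2 wholly above that of Dlg3. FPKM are per length of transcript, so levels of different genes can be set side by side only as far as the lengths used are right. Those lengths are not known here, and the unit itself was inferred. Annotated coding transcripts ran from 389 to 6326 bases for Dlg4 and from 798 to 10982 bases for Homer2. The order of the genes and the shares within a family carry this limit.

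Below Dlg2, the order of the levels differed between the regions. In hippocampus the ranges of Dlg3 and Shank3 overlapped and lay above Shank1, which lay above Shank2, Dlg1 and Homer1, whose ranges overlapped one with the next; Homer3 and Homer2 came last and overlapped. In prefrontal cortex Dlg3, Dlg1, Shank3, Homer1, Shank1 and Shank2 formed 1 run of overlapping neighbours, with medians of 45.1 FPKM for Dlg3 and 28.1 FPKM for Shank2. Homer2 lay below them with a median of 8.73 FPKM, and Homer3 below Homer2 with a median of 2.37 FPKM. Homer3 ranked 4309th among all genes in hippocampus, against 11083rd in prefrontal cortex.

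**Figure D1:**
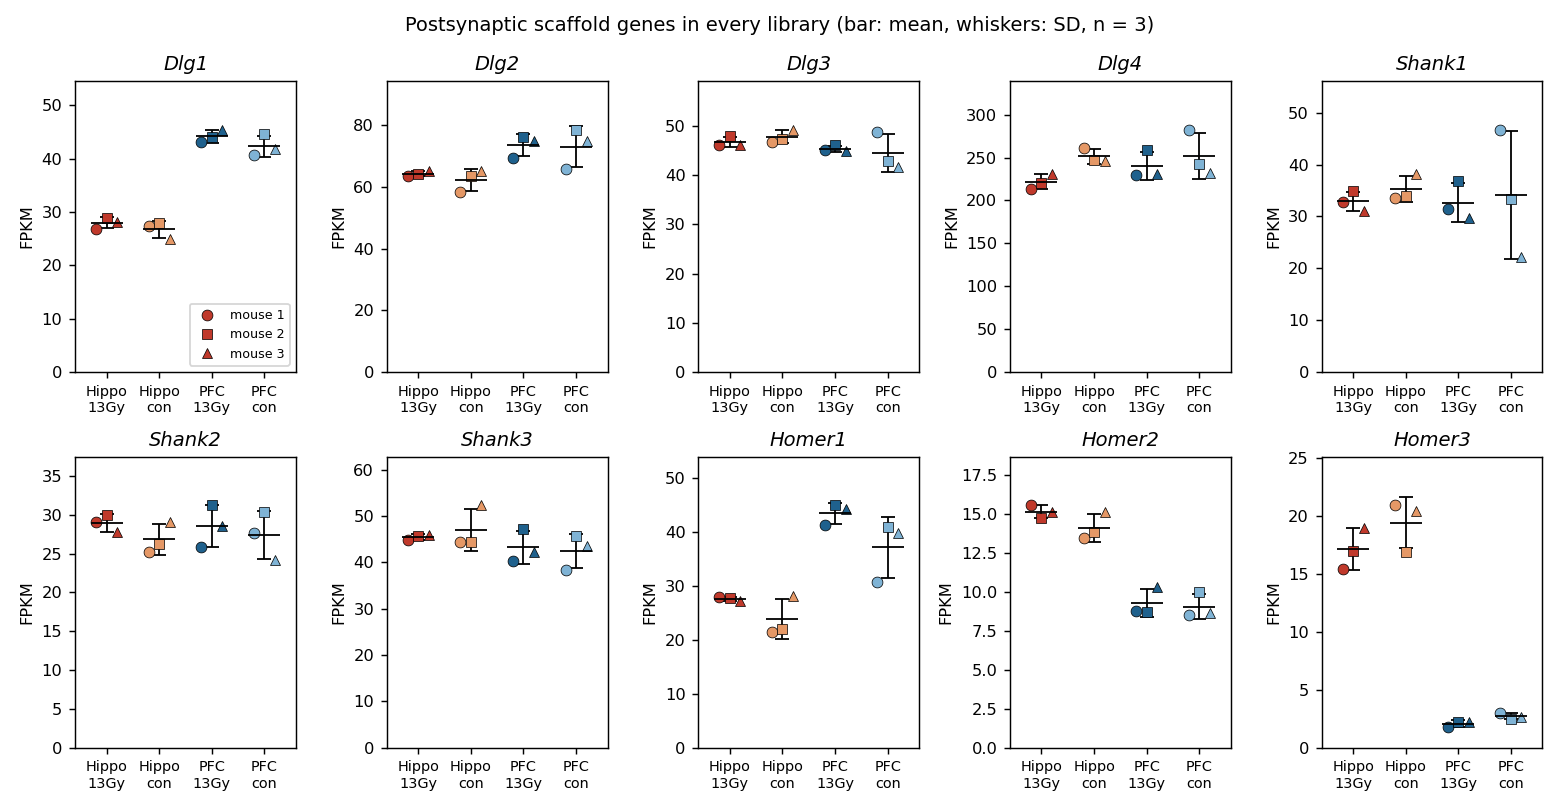
Level of each scaffold gene in every library, in FPKM on linear axes that start at 0, with irradiated hippocampus, control hippocampus, irradiated prefrontal cortex and control prefrontal cortex (Hippo or PFC, 13Gy or con) from left to right; symbols tell mice 1, 2 and 3 of a group apart, bars are means and whiskers are SD (n = 3). Homer3 lies between 15.4 and 20.9 FPKM in hippocampus and between 1.76 and 3.01 FPKM in prefrontal cortex, and Shank1 spreads from 22.1 to 46.8 FPKM among the control prefrontal libraries.

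Markers of the dissected tissue were compared first. The sums of the dentate gyrus, CA1, cortical layer and striatal lists did not overlap between the regions, while that of the CA3 list did. The summed level of 4 dentate gyrus markers was 76.1 to 90.3 FPKM in hippocampus, against 8.42 to 22.0 FPKM in prefrontal cortex, and that of 4 CA1 markers was 129 to 143 FPKM, against 60.6 to 73.2 FPKM. Wfs1 of the CA1 list had a lower mean in control hippocampus, 38.3 against 43.3 FPKM, and a higher one in irradiated hippocampus, 47.8 against 41.1 FPKM. The 4 CA3 markers summed to 97.7 to 109 FPKM in hippocampus, against 94.4 to 116 FPKM in prefrontal cortex. Spock1 was the largest part of that sum. Its means were 62.9 FPKM in irradiated and 56.8 FPKM in control hippocampus, against 80.7 and 68.7 FPKM in prefrontal cortex. Bok, Iyd and Cdh24 had higher means in hippocampus. The 7 cortical layer markers summed to 64.6 to 82.7 FPKM in hippocampus, against 176 to 217 FPKM in prefrontal cortex. Fezf2 of that list had higher means in hippocampus, 16.5 against 15.7 FPKM in irradiated and 14.5 against 11.2 FPKM in control mice. The 7 markers of striatal projection neurons summed to 59.2 to 111 FPKM in hippocampus, against 678 to 874 FPKM in prefrontal cortex. The 5 choroid plexus markers summed to 3096 to 5800 FPKM in all hippocampal libraries except irradiated library 2, which had 62.4 FPKM. Prefrontal libraries had 3.60 to 5.91 FPKM of these except control library 3, which had 63.6 FPKM. No marker of these lists was at 0 in all libraries of a region. The part of these tissue differences in the regional results was not tested.

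The first question was how the scaffolds differ between hippocampus and prefrontal cortex. Homer3 and Homer2 were higher in hippocampus and Dlg1 and Homer1 were lower, in irradiated and in control mice, and the Shank genes, Dlg3 and Dlg4 did not pass the test in either. Among irradiated mice 5 of the 10 genes passed the test, 2 higher and 3 lower, at a background of 29.2% of the 12878 genes tested (13.9% higher and 15.3% lower). Among control mice 4 of the 10 passed, 2 higher and 2 lower, at a background of 30.3% of 12923 genes (15.7% higher and 14.6% lower). With 10 genes, counts of 5 and 4 are near these backgrounds. The test was limma on log2(FPKM + 1), with p-values adjusted by Benjamini and Hochberg's method over all genes tested and a threshold of 0.05. The median log2 difference of the 10 genes was 0.017 in irradiated and 0.053 in control mice, beside 0.00011 and 0.0051 over all genes tested. Without irradiated hippocampal library 2, which held little choroid plexus signal, the log2 differences were 2.56 for Homer3, 0.68 for Homer2, -0.67 for Dlg1 and -0.64 for Homer1, all past the threshold. Without control prefrontal library 3, which held more of it than the other prefrontal libraries, they were 2.44, 0.56, -0.65 and -0.56 in the same order, again all past the threshold.

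Homer3, which lies at chr8:70282827-70294361 on the plus strand (GENCODE M21, mm10), differed most among the 10. Its levels were 15.4, 17.0 and 19.0 FPKM in irradiated hippocampus, against 1.76, 2.23 and 2.26 FPKM in irradiated prefrontal cortex. Control hippocampus had 20.9, 16.9 and 20.4 FPKM, against 3.01, 2.49 and 2.68 FPKM in control prefrontal cortex. Every hippocampal library lay above every prefrontal one. Within each set of mice taken alone, 21.4% of genes were wholly higher in hippocampus in irradiated mice and 23.7% in control mice. The share for both sets together was not computed. The log2 difference was 2.56 ± 0.10 (SE, limma adjusted p = 3.10e-06) in irradiated mice and 2.45 ± 0.10 (limma adjusted p = 5.54e-07) in control mice. At the low prefrontal level the added 1 FPKM makes this difference smaller, and with 0.1 added instead it was 2.99 and 2.79 in the same order. Within single mice the hippocampal level was between 6.79 and 8.77 times the prefrontal one, with a median of 7.63 over the 6 mice. Homer3 shares 874 exon bases with Ddx49, an RNA helicase gene on the opposite strand, and the sources used here do not state whether strand was used in counting. Ddx49 was at 15.5 to 20.4 FPKM in hippocampus, against 13.03 to 16.2 FPKM in prefrontal cortex.

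Homer2 (chr7:81600481-81707527, minus strand), which also encodes a long, coiled-coil Homer, showed a smaller difference in the same direction. Its levels were 15.5, 14.7 and 15.1 FPKM in irradiated hippocampus, against 8.73, 8.73 and 10.3 FPKM in irradiated prefrontal cortex. Control mice had 13.4, 13.8 and 15.1 FPKM in hippocampus, against 8.54, 9.95 and 8.62 FPKM in prefrontal cortex. The groups did not overlap in either set of mice. The log2 difference was 0.66 ± 0.08 (limma adjusted p = 0.000519) in irradiated mice and 0.59 ± 0.08 (limma adjusted p = 0.000639) in control mice, and hippocampus was higher in 6 of 6 mice.

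Homer1 (chr13:93299635-93405129, plus strand) went the other way. It had 28.0, 27.7 and 27.1 FPKM in irradiated hippocampus, against 41.3, 45.0 and 44.2 FPKM in irradiated prefrontal cortex. Control mice had 21.5, 22.0 and 28.2 FPKM in hippocampus, against 30.7, 40.98 and 39.8 FPKM in prefrontal cortex. The groups did not overlap, and control mouse 1 was lowest in both regions. The log2 difference was -0.64 ± 0.05 (limma adjusted p = 0.000122) in irradiated mice and -0.61 ± 0.13 (limma adjusted p = 0.00634) in control mice. Within single mice the hippocampal level was between 0.538 and 0.710 of the prefrontal one.

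Dlg1 (chr16:31663443-31875129, plus strand) encodes SAP97, a Dlg protein known for the forward traffic of AMPA receptors and found in many tissues. It had 26.9, 28.9 and 28.1 FPKM in irradiated hippocampus, against 43.1, 44.1 and 45.4 FPKM in irradiated prefrontal cortex. In control mice it had 27.4, 28.0 and 24.9 FPKM in hippocampus, against 40.7, 44.5 and 41.7 FPKM in prefrontal cortex. No library of one region reached the range of the other. The log2 difference was -0.64 ± 0.05 (limma adjusted p = 0.000111) in irradiated mice and -0.64 ± 0.07 (limma adjusted p = 0.000125) in control mice. The ratio of hippocampus to prefrontal cortex within a mouse ran from 0.596 to 0.672.

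Dlg2 (chr7:90476672-92449247, plus strand) was lower in hippocampus by a smaller step that sat at the threshold. It had 63.5, 64.3 and 65.0 FPKM in irradiated hippocampus, against 69.4, 76.2 and 74.9 FPKM in irradiated prefrontal cortex. Control mice had 58.3, 63.4 and 65.2 FPKM in hippocampus, against 65.6, 78.6 and 75.0 FPKM in prefrontal cortex. The groups did not overlap in either set of mice, and the ratio within a mouse ran from 0.807 to 0.915 in 6 of 6 mice. The log2 difference passed in irradiated mice at -0.19 ± 0.06 (limma adjusted p = 0.0379) and missed in control mice at -0.22 ± 0.08 (limma adjusted p = 0.0620). Libraries of the same mouse are paired across regions, and with the mouse as a replicate block the adjusted p was 0.0183 in irradiated and 0.0219 in control mice. Without a block the call in irradiated mice was lost in 5 of the 6 fits that left out 1 library, with adjusted p between 0.0721 and 0.121 in those, and kept only without prefrontal library 1. Among controls, of the 6 such fits, Dlg2 passed only without prefrontal library 1 (adjusted p = 0.0110). Groups without overlap were common, 44.8% of genes in irradiated mice (23.4% lower in hippocampus) and 45.7% in control mice (22% lower).

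**Figure D2:**
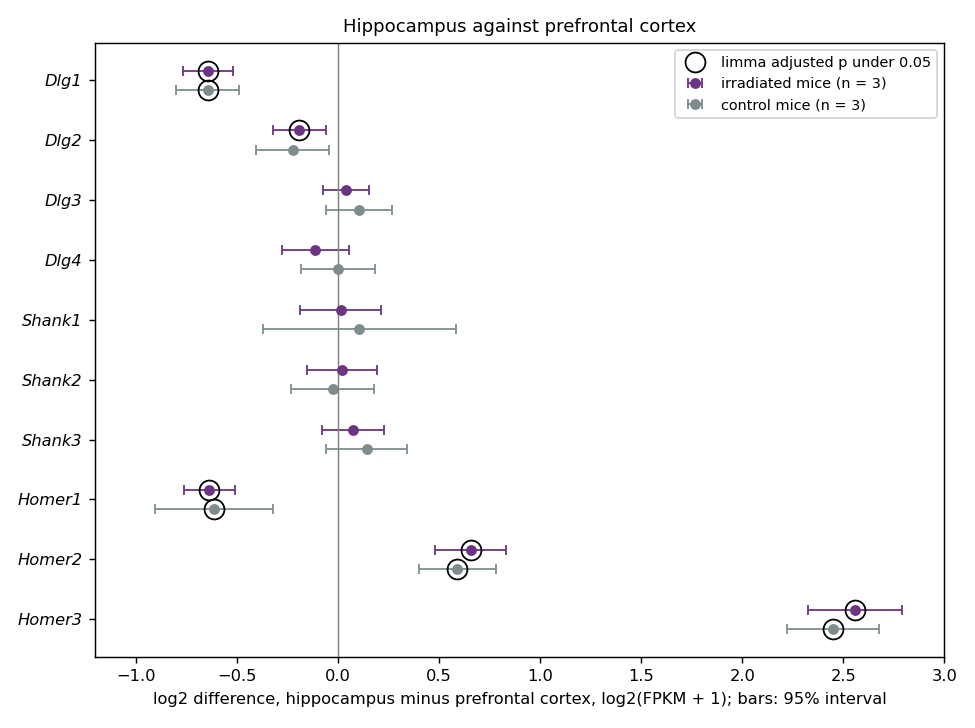
Log2 difference of hippocampus minus prefrontal cortex on the log2(FPKM + 1) scale for the 10 scaffold genes, with irradiated mice above control mice in each row; points are limma estimates, bars 95% intervals, and rings mark an adjusted p under 0.05 (n = 3 mice each). Homer3 stands at 2.56 and 2.45, Homer2 at 0.66 and 0.59, Homer1 and Dlg1 lie between -0.64 and -0.61, and the intervals of the Shank genes, Dlg3 and Dlg4 include 0.

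For Dlg3, Dlg4 and the Shank genes the intervals give the sizes that these libraries leave possible. The log2 difference of Dlg4 was -0.11 in irradiated mice (95% interval -0.28 to 0.053) and -0.00027 in control mice (-0.18 to 0.18). Shank3, known for its loss in Phelan-McDermid syndrome, had 0.074 (-0.079 to 0.23) in irradiated and 0.14 (-0.058 to 0.34) in control mice. Shank2, also known as ProSAP1, had 0.022 (-0.15 to 0.19) and -0.026 (-0.23 to 0.18) in the same order. Shank1, the family member most restricted to brain, was the least precise, at 0.013 (-0.19 to 0.21) in irradiated and 0.11 (-0.37 to 0.59) in control mice. Its control prefrontal libraries held 46.8, 33.4 and 22.1 FPKM, a spread wider than the whole of its hippocampal range of 31.1 to 38.2 FPKM. Dlg3 had 0.039 (-0.075 to 0.15) in irradiated and 0.11 (-0.058 to 0.27) in control mice, and without control prefrontal library 1 it passed the test at 0.17 (limma adjusted p = 0.0486).

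Summed by family, the Homer genes gave 58.9 to 61.3 FPKM in irradiated hippocampus, against 51.8 to 56.8 FPKM in irradiated prefrontal cortex. Control mice had 52.7 to 63.8 FPKM in hippocampus, against 42.3 to 53.4 FPKM in prefrontal cortex, and these ranges overlapped. The make-up of that sum differed more than its size. Homer3 made up 28.6% ± 2.43 of the Homer sum in irradiated hippocampus (SD, n = 3), against 3.78% ± 0.338 in irradiated prefrontal cortex. In control mice its share was 33.9% ± 3.13 in hippocampus, against 5.68% ± 1.29 in prefrontal cortex. Homer1 made up 46.1% ± 1.64 in irradiated hippocampus, against 79.3% ± 1.31 in irradiated prefrontal cortex, and 41.5% ± 2.88 in control hippocampus, against 75.7% ± 2.73 in control prefrontal cortex. By these values Homer1 thus had the largest part of the Homer sum in prefrontal cortex, while the hippocampal sum was spread over all 3 genes. Dlg4 held 58.2% to 66.4% of the Dlg sum in every library, and the shares of Dlg4 and Dlg2 overlapped between the regions. The share of Dlg1 did not overlap, at 6.46% to 8.004% in hippocampus, against 9.30% to 11.5% in prefrontal cortex. Neither did that of Dlg3, at 11.9% to 13.2% in hippocampus, against 10.5% to 11.7% in prefrontal cortex. A share also depends on the other genes of its family, and with all libraries the level of Dlg3 passed the test in neither set of mice. The shares of all 3 Shank genes overlapped between the regions, and that of Shank1 ran from 24.6% to 41.5% among the control prefrontal libraries.

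**Figure D3:**
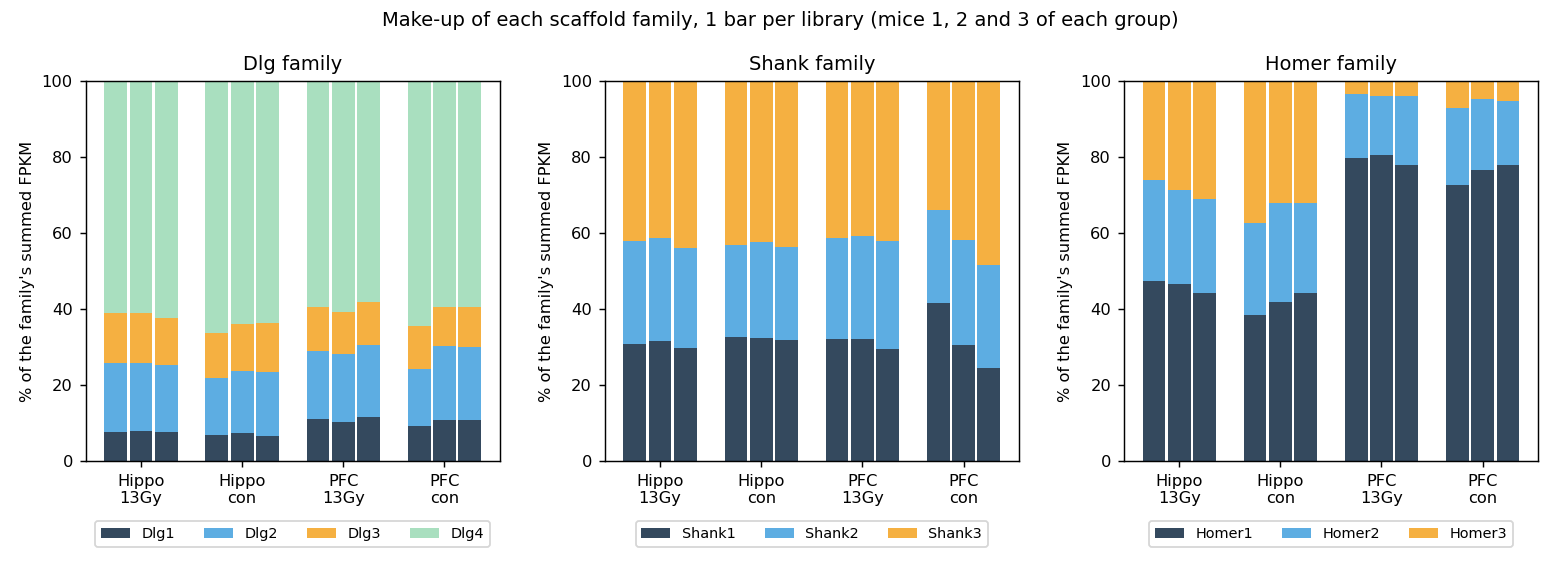
Share of each gene in the summed FPKM of its family, 1 bar per library, with mice 1, 2 and 3 of irradiated hippocampus, control hippocampus, irradiated prefrontal cortex and control prefrontal cortex from left to right; the vertical axis is percent and starts at 0. Homer3 takes 26.1% to 37.5% of the Homer sum in hippocampal libraries and 3.39% to 7.13% in prefrontal ones.

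The wider postsynaptic apparatus was described with 9 lists of binding partners and related genes, counted by the same test (higher and lower in hippocampus, of the genes tested). These counts stand beside the shares of all genes given above, 13.9% higher and 15.3% lower in irradiated mice and 15.7% higher and 14.6% lower in control mice. Of the 4 DLGAP linkers, 0 were higher and 1 lower in irradiated mice, and 0 higher and 2 lower in control mice. Dlgap3 was the linker lower in both, with a log2 difference of -0.60 ± 0.06 in irradiated mice (limma adjusted p = 0.000323) and -0.50 ± 0.07 in control mice (limma adjusted p = 0.000441). Of 18 partners of PSD-95 and Shank in spine signalling and actin, 4 were higher and 4 lower in irradiated mice, and 4 higher and 5 lower in control mice. Among them Cttn, the actin-binding cortactin that Shank proteins hold, was higher by 0.52 ± 0.07 in irradiated (limma adjusted p = 0.000955) and 0.64 ± 0.07 in control mice (limma adjusted p = 0.000184).

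Homer's partners in calcium signalling included the lowered Itpr1, the inositol trisphosphate receptor, with a log2 difference of -1.002 ± 0.08 in irradiated mice (limma adjusted p = 6.19e-05) and -0.84 ± 0.09 in control mice (limma adjusted p = 9.52e-05). Plcb4, a phospholipase C gene, was lower with log2 differences of -1.05 ± 0.11 and -1.09 ± 0.11 in the same order (limma adjusted p = 0.000286 and 6.83e-05). Of the 12 genes of that list, 3 were higher and 4 lower in irradiated mice, and 1 higher and 5 lower in control mice. Of 6 NMDA receptor subunits only Grin2a passed, higher in both sets of mice, by 0.80 ± 0.17 in irradiated (limma adjusted p = 0.00987) and 0.74 ± 0.19 in control mice (limma adjusted p = 0.0163). Of 8 AMPA receptor subunit and auxiliary TARP genes, 2 were higher and 5 lower in each set of mice. Gria1, the GluA1 subunit, was higher by 1.15 ± 0.07 in irradiated and 1.24 ± 0.07 in control mice, and Cacng3, a TARP that PSD-95 binds, was lower with log2 differences of -0.91 ± 0.08 and -1.09 ± 0.07 in the same order (each past the threshold in limma).

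Of 12 adhesion genes whose proteins bind Dlg scaffolds, 3 were higher and 3 lower in each set of mice, Lrrtm1 being higher by 0.89 ± 0.06 in irradiated (limma adjusted p = 3.47e-05) and 0.93 ± 0.08 in control mice (limma adjusted p = 4.21e-05). Of 16 other scaffolds of the guanylate kinase and MAGI families and their Lin7 partners, 3 were higher and 6 lower in irradiated mice, and 3 higher and 4 lower in control mice. The inhibitory postsynapse list, with 6 of its 8 genes in the tables, had 2 higher and 1 lower in irradiated mice and 2 higher and 2 lower in control mice. Among 14 genes known to be induced by neuronal activity, 1 was higher and 12 lower in each set of mice, with a median log2 difference of -0.78 in irradiated and -0.81 in control mice. The medians of the other lists lay between -0.40 (AMPA receptor list) and 0.13 (inhibitory postsynapse) in irradiated mice and between -0.42 and 0.043 for the same lists in control mice. Egr1 was lower with a log2 difference of -1.001 ± 0.11 in irradiated mice (limma adjusted p = 0.000502), while Nr4a3 was the gene that was higher, by 1.23 ± 0.10 (limma adjusted p = 8.43e-05). Homer1, whose short form belongs to this class, was lower in the same comparison, as given above.

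The genes whose levels ran most nearly parallel to a scaffold gene over the 12 libraries were sought among 8849 genes, by Pearson's r of log2(FPKM + 1). The 12 libraries are 2 regions of 6 mice, so for a gene that differs between the regions r mostly reflects that split, and it is given as a description. Homer3 was nearest to Fibcd1 (r = 0.998; hippocampal mean 33.5 FPKM, prefrontal mean 2.53 FPKM) and to Pcdh20 (r = 0.996). Homer1 was nearest to Htr2a, the serotonin 2A receptor (r = 0.988; 3.40 and 10.1 FPKM). Homer2 was nearest to Enah (r = 0.985), Dlg1 to Osbpl1a (r = 0.992; 57.3 and 127 FPKM) and Dlg2 to Gabra4, a GABA receptor subunit (r = 0.971). Dlg4 was nearest to Cplx2, complexin 2 (r = 0.952; 356 and 382 FPKM), and Shank1 to the linker Dlgap1 (r = 0.888).

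The second question was whether abdominal irradiation went with a change of the scaffolds. In hippocampus 0 of the 10 genes passed the test, at a background of 0% (0 of 12947 genes by limma; 1361 genes, 10.5%, had an unadjusted p under 0.05, and limma with robust moderation called 3). In prefrontal cortex 0 of the 10 passed, at a background of 0.00786% (1 of 12729 genes by limma, the small nucleolar RNA Snora81; 920 genes, 7.23%, had an unadjusted p under 0.05). The smallest adjusted p among the 10 genes was 0.475 in hippocampus and 0.604 in prefrontal cortex. The median log2 difference of the 10 genes was 0.0061 in hippocampus and 0.028 in prefrontal cortex, beside -0.0093 and 0.0035 over all genes tested. An unadjusted p under 0.05 was reached by 1 of the 10 in each region, Dlg4 in hippocampus and Homer3 in prefrontal cortex.

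Dlg4 in hippocampus had 213, 220.5 and 231 FPKM in irradiated mice, against 262, 247 and 246 FPKM in control mice. All 3 irradiated libraries lay below all 3 control libraries, as was so for 8.16% of genes in this comparison. The log2 difference was -0.18 ± 0.06 (limma, 95% interval -0.31 to -0.048, unadjusted p = 0.0138, adjusted p = 0.475). In prefrontal cortex Dlg4 had 230.2, 259 and 231 FPKM in irradiated mice, against 283, 242 and 232 FPKM in control mice, which overlapped (log2 difference -0.069, 95% interval -0.28 to 0.14). Without control library 1 that difference was 0.016. In hippocampus the difference ran from -0.21 to -0.15 when 1 library was left out. With all libraries scaled to equal totals it was -0.094 ± 0.053, and the median of all genes in that comparison was then 0.068. Dlg4 carried much of its family's sum, and the Dlg sum in hippocampus was 350, 362 and 370.1 FPKM in irradiated mice, against 394, 385 and 385 FPKM in control mice.

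Homer1 and Homer3 had differences of opposite sign in both regions, and neither passed the test in either. Homer1, whose values stand above, averaged 27.6 ± 0.421 FPKM in irradiated and 23.9 ± 3.74 FPKM in control hippocampus (SD, n = 3 each), with a log2 difference of 0.21 ± 0.10 (limma adjusted p = 0.494). Prefrontal libraries averaged 43.5 ± 1.96 FPKM after irradiation and 37.2 ± 5.62 FPKM among controls, and the log2 difference was 0.23 ± 0.11 (limma adjusted p = 0.701). The irradiated prefrontal libraries lay above all control ones, as did 6.25% of genes, and in hippocampus control library 3, at 28.2 FPKM, lay above all irradiated ones, while 7.41% of genes were wholly higher after irradiation there. Without control library 1 the log2 difference of Homer1 was 0.14 in hippocampus and 0.10 in prefrontal cortex, and without control library 3 it was 0.33 in hippocampus.

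Homer3 averaged 17.1 ± 1.80 FPKM in irradiated and 19.4 ± 2.20 FPKM in control hippocampus (SD, n = 3 each), a log2 difference of -0.17 ± 0.10 (limma adjusted p = 0.542), and the groups overlapped. It was -0.10 without irradiated library 1, -0.26 without control library 2 and -0.088 with equal totals. Prefrontal libraries averaged 2.08 ± 0.281 FPKM after irradiation and 2.73 ± 0.264 FPKM among controls, and the irradiated libraries lay below all control ones, as did 7.44% of genes. The log2 difference there was -0.28 ± 0.11 (limma, 95% interval -0.52 to -0.034, unadjusted p = 0.0297, adjusted p = 0.604). These prefrontal levels of Homer3 lie little above the filter of 1 FPKM. Ddx49, which shares exon bases with Homer3, averaged 13.6 FPKM in irradiated and 14.8 FPKM in control prefrontal cortex, with overlapping ranges. The part of this overlap of the genes in the Homer3 values was not tested.

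With the values of both regions averaged per mouse, a fit chosen after the data were seen, the log2 difference of irradiated minus control was 0.22 ± 0.09 for Homer1 (limma unadjusted p = 0.0306, adjusted p = 0.466) and -0.22 ± 0.09 for Homer3 (limma unadjusted p = 0.0344, adjusted p = 0.466). None of the 10 genes passed, at a background of 0.00776% (1 of 12894 genes; 1304 had an unadjusted p under 0.05). Without control mouse 1 the Homer1 difference was 0.12. The difference between the regions in the irradiation effect, hippocampus minus prefrontal cortex, was -0.023 ± 0.16 for Homer1 and 0.11 ± 0.15 for Homer3, and none of the 10 genes passed (limma adjusted p = 0.99978 for each). The background was 0%, 0 of 12894 genes by limma, with 422 (3.27%) at an unadjusted p under 0.05. That fit took the 12 libraries as independent, although each mouse gave both regions. With a term for each mouse, limma called 0 genes and 0 of the 10 scaffolds, and 681 genes had an unadjusted p under 0.05.

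**Figure D4:**
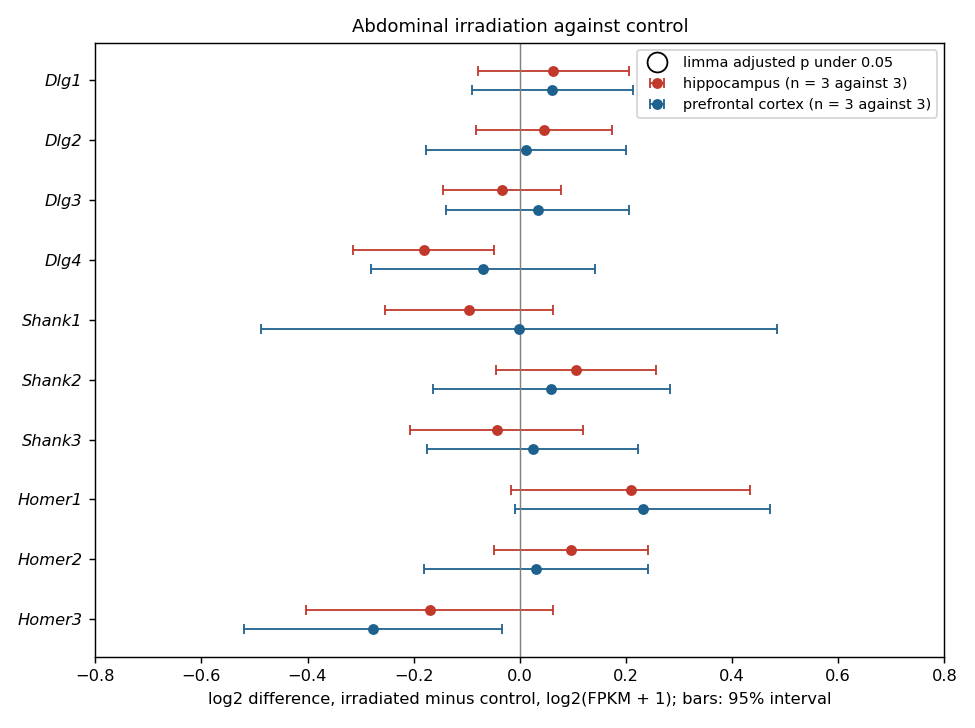
Log2 difference of irradiated minus control mice on the log2(FPKM + 1) scale for the 10 scaffold genes, with hippocampus above prefrontal cortex in each row; points are limma estimates and bars 95% intervals (n = 3 against 3), and no point carries the ring that would mark an adjusted p under 0.05. The intervals of Dlg4 in hippocampus (-0.31 to -0.048) and of Homer3 in prefrontal cortex (-0.52 to -0.034) leave out 0 before adjustment.

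The other genes showed smaller or less precise differences. In hippocampus Shank2 had a log2 difference of 0.11 ± 0.07, Homer2 of 0.096 ± 0.06, Shank1 of -0.096 ± 0.07 and Dlg1 of 0.063 ± 0.06, while Dlg2, Dlg3 and Shank3 lay within -0.043 and 0.045. Single libraries moved these values: with 1 library left out, Shank2 ran from 0.064 (without control library 1) to 0.16 (without control library 3) and Homer2 from 0.063 to 0.14 without the same libraries. Shank1 ran from -0.14 (without irradiated library 2) to -0.039 (without control library 3), and Dlg1 from 0.013 (without control library 3) to 0.096 (without control library 2). In prefrontal cortex Dlg1, Dlg2, Dlg3, Shank1, Shank2, Shank3 and Homer2 lay between -0.0022 for Shank1 and 0.061 for Dlg1. The interval of Shank1 in prefrontal cortex, -0.49 to 0.48, was the widest of all 10. None of the partner lists had a gene that passed in either region or in the difference between regions. Their median log2 differences lay in hippocampus between -0.027 for the other scaffolds of the guanylate kinase and MAGI families and 0.14 for the Homer partners, of which 9 of 11 were positive. In prefrontal cortex they lay between -0.0075 and 0.066 for the same lists, with 9 of 12 Homer partners positive. Over all genes tested the medians were -0.0093 in hippocampus and 0.0035 in prefrontal cortex. The share of all genes with a positive difference was not computed, and both regions came from the same mice. In the inhibitory postsynapse list 6 of 6 genes were positive in hippocampus and 3 of 6 in prefrontal cortex.

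Some mice were at an end of the range in both regions for some scaffolds. The share of all genes for which this held was not computed, so the pattern is not known to be particular to the scaffolds. Control mouse 1 was at an end of the range in both regions for 5 genes, highest of the 6 libraries for Dlg4 and Homer3 and lowest for Dlg2, Homer1 and Homer2. Irradiated mouse 1 was lowest in both regions for Dlg4 and Homer3, and irradiated mouse 2 was highest in both for Shank2. The summed level of 5 endothelial markers did not overlap between the treatments, at 52.4 to 59.3 FPKM in irradiated and 26.4 to 35.9 FPKM in control hippocampus, and at 60.0 to 69.7 FPKM in irradiated and 50.4 to 53.1 FPKM in control prefrontal cortex, lowest in control mouse 1 in both. The 5 oligodendrocyte markers summed to 1828 to 1956 FPKM in irradiated and 2018 to 2498 FPKM in control hippocampus, and to 1263 to 1409 FPKM in irradiated and 1494 to 1633 FPKM in control prefrontal cortex. In hippocampus the 5 microglial markers, at 73.5 to 76.6 FPKM in irradiated and 80.7 to 83.2 FPKM in control mice, and the 7 cortical layer markers, at 71.7 to 82.7 FPKM in irradiated and 64.6 to 70.9 FPKM in control mice, did not overlap either. Against these sums, the microglial Csf1r averaged 26.9 FPKM in irradiated and 26.1 FPKM in control hippocampus. The cortical Rorb averaged 2.43 and 2.77 FPKM in the same order. In prefrontal cortex the sum of the 4 CA3 markers was 106 to 116 FPKM after irradiation, against 94.4 to 96.6 FPKM among controls. That of the 4 dentate gyrus markers was 8.42 to 15.8 FPKM, against 16.5 to 22.0 FPKM, and neither sum overlapped between the treatments. The lower dentate gyrus sum came mainly from Calb2, whose prefrontal mean was 9.05 FPKM after irradiation, against 15.7 FPKM among controls. Prox1 averaged 2.25 FPKM in both groups. C1ql2 averaged 0.505 against 0.688 FPKM, and Dsp 0.0365 against 0.0457 FPKM, so the list as a whole did not shift alike. The remaining marker lists overlapped between the treatments, among them the 5 neuronal markers, at 1943 to 2095 FPKM in irradiated and 1918 to 2044 FPKM in control hippocampus. The part of these shifts in the scaffold values was not tested.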

How the data were processed

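Trizol was used for extraction and a NEBNext Ultra II Directional kit for the libraries, per the labels' protocols. Per the submitters' processing notes, the aligner was TopHat and the genome mm10. Versions, counting tool, annotation and strand setting were not given in the sources used here. A symbol and a value per gene make up a deposited table, and no unit is named. The deposited values were taken as FPKM, because value times transcript length (kilobases, GENCODE M21; 22148 of 23183 symbols matched) sums to between 1.20 and 1.25 M (mega) in each library, near the 1 M that FPKM give. FPKM are relative to a library's total, so abundant genes shift all others. Sums ran from 381417 to 435534, and 12640 to 12967 genes reached 1 FPKM. Read counts were not used, so depth is unknown and no counting interval is given. No 2 libraries held the same values, and all carry 1 batch label.

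Groups came from the sample titles. log2(FPKM + 1) was tested with limma-trend (limma 3.58.1, R 4.3.3), two-sided, on genes that averaged at least 1 FPKM in the libraries compared, with Benjamini-Hochberg adjustment over all of them. Checks on simulated data used the same steps. By their titles, hippocampal and prefrontal libraries of 1 treatment and number are from the same mouse, and their deviations from the group means correlated by 0.17, 0.26 and 0.30 in irradiated mice and 0.29, -0.0060 and 0.054 in control mice. Irradiated and control mice of the same number are different animals. Their libraries correlated by -0.16 to 0.10 in hippocampus and by 0.12 to 0.14 in prefrontal cortex. For irradiation, a block on the number therefore pairs no animals in either region. Alternatives were a pseudocount of 0.1, no filter or a minimum of 5 FPKM, equal totals, median-of-ratios scaling, robust moderation, a replicate block, 1 fit over all 12 libraries and leaving out each library. Genes, lists and markers were chosen with earlier results of these data known. Partner genes named are among those with the smallest adjusted p of each list in control mice, and the parallel genes are those of highest r.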

Additional observations from a re-analysis of the deposited data

How the results depend on the processing

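Homer3, Homer2, Dlg1 and Homer1 kept their direction and passed between the regions, in irradiated and in control mice, under every alternative run, and under none did any of the 10 genes pass for irradiation or for the difference between regions. Only Dlg2 and Dlg3 changed their side of the threshold between the regions. With the mouse as a replicate block, Dlg2 also passed in control mice (limma adjusted p = 0.0219), as it did in 1 fit over all 12 libraries (0.0273), and no other call among the 10 genes changed. In irradiated mice it missed with equal totals (0.0583) and in the fit over all 12 libraries (0.0594). Irradiated and control mice of the same number are different animals, and a replicate block on the number left 0 of the 10 genes passing in both regions, with 0 genes called in hippocampus and 1 in prefrontal cortex.

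Counts of all genes called between the regions stayed within 1.5 times, while those for irradiation were small and moved. In hippocampus 0 became 4 with equal totals, 3 with robust moderation and 1 in the fit over all 12 libraries, and 0 to 1 when a library was left out. In prefrontal cortex 1 became 2 with no filter and 0 in the fit over all 12 libraries, and 1 to 4 when a library was left out. The difference between regions gave 1 gene with no filter and 0 to 2 with a library left out, and the means per mouse gave 1 to 3 with a mouse left out. The cause was not tested.

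Equal totals shifted the median of all genes for irradiation to 0.068 in hippocampus and 0.070 in prefrontal cortex. Under it the log2 difference changed sign for Dlg3 (0.052) and Shank3 (0.042) in hippocampus, for Dlg4 (0.0073) and Shank1 (0.072) in prefrontal cortex, and for Shank1 between the regions of irradiated mice (-0.0025). Median-of-ratios scaling gave 0.0026 for Shank1 in prefrontal cortex. With a library left out, differences that missed the threshold changed sign as follows. Between regions they ran, in irradiated mice, from -0.052 to 0.10 for Shank1 and -0.045 to 0.086 for Shank2, and in control mice from -0.059 to 0.084 for Dlg4, -0.16 to 0.36 for Shank1 and -0.11 to 0.048 for Shank2. For irradiation in hippocampus they ran from -0.00037 to 0.078 for Dlg2 and -0.083 to 0.034 for Shank3. In prefrontal cortex they ran from -0.063 to 0.065 for Dlg2, -0.011 to 0.10 for Dlg3, -0.13 to 0.016 for Dlg4, -0.27 to 0.25 for Shank1, -0.024 to 0.13 for Shank2, -0.046 to 0.076 for Shank3 and -0.041 to 0.095 for Homer2. The difference between regions, recomputed for Homer1 and Homer3 only, ran from -0.097 to 0.11 for Homer1. The number of mice, 3 per group, and the unknown depth limit the precision.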
